A study of Mus musculus with 16 samples.

Results

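Nr2f1, Nr2f2 and Nr2e1 encode orphan nuclear receptors, and their transcripts were followed across 16 RNA-seq libraries of the tissues that build the face of the mouse embryo. The genes were taken by symbol. All 3 were measured, each on a single row of a table of 15876 genes (ENSMUSG00000069171, ENSMUSG00000030551 and ENSMUSG00000019803). The embryos were CD1 mice, with no treatment or mutation named in the labels. The libraries of embryonic day 8.5 (E8.5) came from mesoderm, caudal brain neural epithelium, floor plate and neural epithelium outside the floor plate. The E9.5 libraries came from cranial mesenchyme, epidermal ectoderm and the mandibular and maxillary arches. At E10.5 there were the lateral and medial nasal prominences, both arches, the olfactory pit, and 3 samples of neural epithelium, titled lateral prominence, central and dorsal control. Every combination of region and stage was sequenced once, and the number of embryos pooled for a library is not given in the sources used here. Read depths, per the labels, exceeded 40000000, and totals per library were not used here.

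An orphan nuclear receptor has the DNA-binding and ligand-binding domains of the nuclear receptor family without an accepted natural ligand. Nr2f1 and Nr2f2 (COUP-TFI and COUP-TFII) are close paralogs that mostly act as repressors at pairs of half-sites of the AGGTCA type. Nr2f1 is best known for setting the areas of the cerebral cortex and for roles in neural crest, and Nr2f2 for the identity of veins and for mesenchyme and ventral forebrain. Nr2e1 (Tlx) is a repressor that keeps neural stem cells of the forebrain and the retina dividing and binds an AAGTCA half-site.

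The bases before the RefSeq start of Nr2f2 and Nr2e1 are shown, since at both starts a neighbouring gene lies on the other strand. They are from RefSeq on build GRCm38.p6, on the minus strand, at chr7:70366747-70366996 for Nr2f2 and chr10:42583633-42583821 for Nr2e1, and capitals mark CG dinucleotides. Of the 250 bases before the RefSeq start of Nr2e1, 42 lie in an exon of Nr2e1 and 19 in one of its neighbour Ostm1 in the GENCODE annotation, and the 189 between them are shown. All 250 bases before the RefSeq start of Nr2f1 (chr13:78198874-78199123) lie in an exon of that gene in GENCODE, which places its start further upstream, and they are not shown.
Nr2f2: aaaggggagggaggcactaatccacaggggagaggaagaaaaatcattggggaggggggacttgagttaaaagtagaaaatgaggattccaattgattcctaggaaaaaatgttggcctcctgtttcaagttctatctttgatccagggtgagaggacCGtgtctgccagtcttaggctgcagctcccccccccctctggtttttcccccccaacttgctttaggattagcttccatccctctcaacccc
Nr2e1: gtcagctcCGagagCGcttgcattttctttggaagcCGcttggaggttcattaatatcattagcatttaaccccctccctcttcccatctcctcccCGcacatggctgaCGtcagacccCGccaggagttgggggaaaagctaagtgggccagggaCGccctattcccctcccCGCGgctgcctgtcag
Over the 250 bases before the RefSeq start, the Nr2f1 stretch holds 22 CG dinucleotides and is 72% G and C. The Nr2e1 stretch holds 15 and is 58% G and C. The Nr2f2 stretch holds 1 and is 50% G and C, against medians of 6 and 52.4% over 32851 promoters of this length. On both strands the motifs AGGTCA (present in 14.0% of those promoters), AAGTCA (13.1%), TAATTA (4.84%) and GGGCGG (32.7%) were searched. One match was found, a GGGCGG on the opposite strand that begins 214 bases before the RefSeq start of Nr2f1, and no matches overlapped. Close in their coding parts, Nr2f1 and Nr2f2 had few stretches as long as a read in common: 10 of the 5090 stretches of 50 bases in Nr2f1 transcripts occur in Nr2f2 (0.196%), and Nr2e1 shared 0 with either.

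Expression is given as a level, the deposited value of a gene divided by its lowest value over the 16 libraries. A level compares libraries for 1 gene and does not compare genes. Folds between libraries are relative to the median gene, which means that the median log2 difference of genes with an unshared lowest value was set to 0. That shift mattered for the E10.5 arches: the library shifts were -0.82 on the log2 scale in the E10.5 maxillary arch, -0.70 in the mandibular arch and -0.38 in the lateral nasal prominence, and they were between -0.28 and 0.40 elsewhere. A gene was counted as different between 2 libraries when it differed by 2-fold or more relative to the median gene and the higher of its 2 levels was 5 or above. With 1 library each, such a count has no replicate error and no p-value. A fold against a library at the lowest value is written "at least". In these bulk samples, fewer cells of a type and less RNA per cell cannot be told apart.

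The labels of 3 E10.5 libraries need care. In the library titled medial nasal prominence, 7 of 8 nasal prominence markers (among them Alx1, Alx4 and Pax7) were at their lowest value and the summed level of the 8 was 8.02, against 85.7 in the lateral nasal prominence. That library had the highest summed level of 12 neural epithelium markers of all libraries, 227.7, and an Nkx2-1 level of 49.9. The libraries titled central and dorsal control carry each other's abbreviation in the heading of their value column, so which tissue each holds is not settled. Both are named here by title.

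The 3 genes were among the most variable of the table. The highest level was 30.4 for Nr2f1, 37.5 for Nr2f2 and 56.4 for Nr2e1, above the highest level of 98.01%, 98.6% and 99.2% of genes. Nr2f1 reached a level of at least 5 in 10 libraries and stood at its lowest value in 2, the E8.5 non-floor plate neural epithelium and the library titled dorsal control. Nr2f2 was the most widespread, at 5 or more in 12 libraries and at its lowest value in 1, titled dorsal control. No other library shares that lowest value, so the Nr2f2 levels are lower bounds of a multiple of the detection floor. Whether that value was itself raised is not known. For Nr2f2 folds against titled dorsal control, "at least" therefore marks the lowest value and not a known floor. Nr2e1 was at 5 or more in 6 libraries and at its lowest value in 7.

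**Figure D1:**
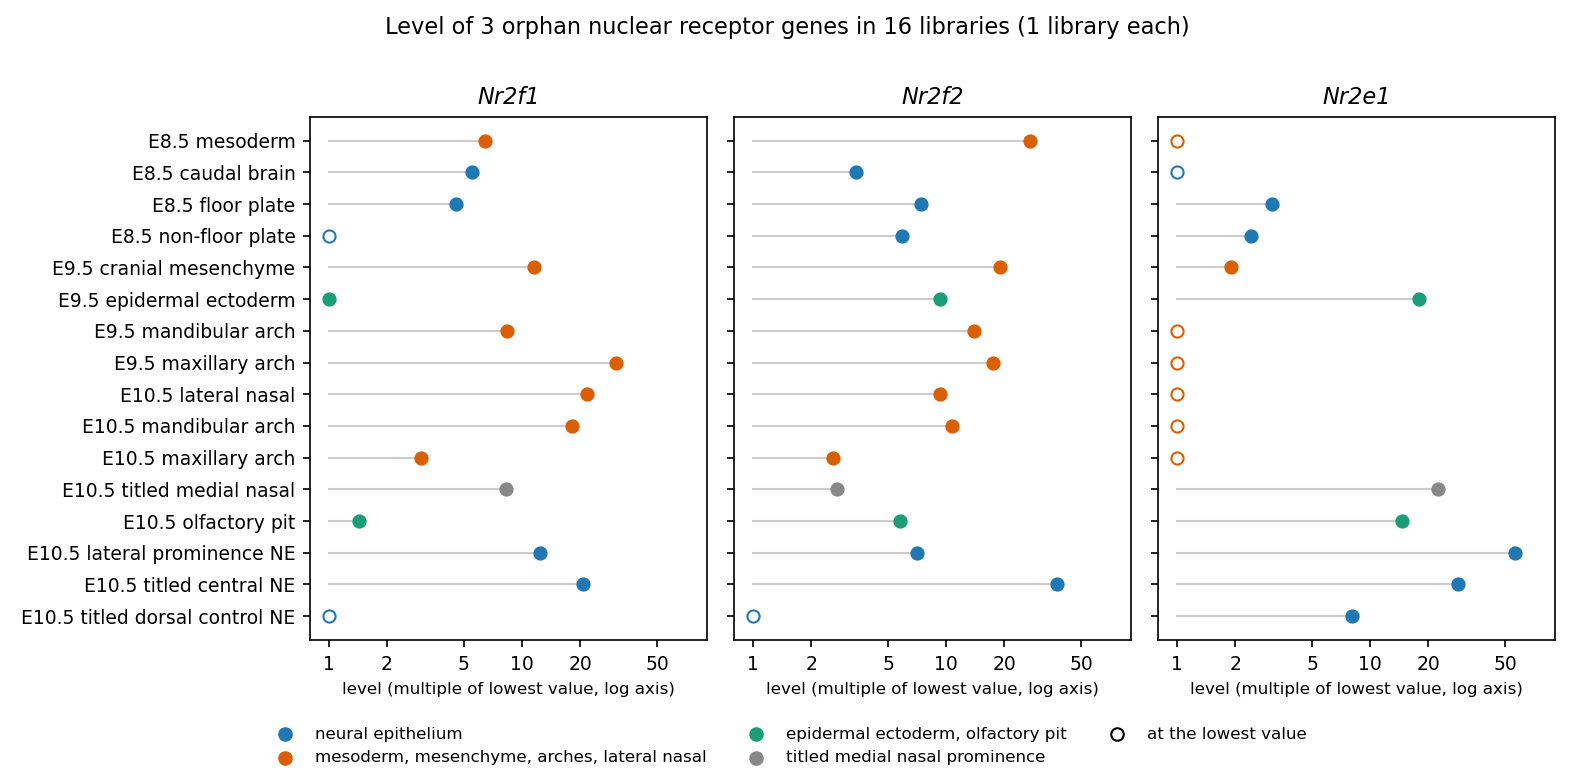
Level of Nr2f1, Nr2f2 and Nr2e1 (multiple of its lowest value, log axis) in each of the 16 libraries, coloured by tissue, with open circles at the lowest value. Nr2f1 peaks at 30.4 in the E9.5 maxillary arch, Nr2f2 at 37.5 in the library titled central, and Nr2e1 at 56.4 in lateral prominence neural epithelium while it is at its lowest value in every arch library.

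In order of level, Nr2f1 led with the E9.5 maxillary arch (30.4), the E10.5 lateral nasal prominence (21.7), the library titled central (20.7) and the E10.5 mandibular arch (18.1). Neighbours in that order differed by at most 1.52-fold down to the E10.5 maxillary arch, where the step to the olfactory pit was 2.08-fold. For Nr2f2 the order began with titled central (37.5), E8.5 mesoderm (27.1), E9.5 cranial mesenchyme (19.1) and the E9.5 maxillary arch (17.4). Its neighbours differed by at most 1.70-fold above the E10.5 maxillary arch, and the last step, from there to titled dorsal control, was 2.60-fold. Nr2e1 ran from 56.4 in lateral prominence neural epithelium through titled central (28.5), titled medial nasal (22.3), E9.5 epidermal ectoderm (17.9), the olfactory pit (14.6) and titled dorsal control (8.02) to 3.10 in E8.5 floor plate. Its largest step, 2.59-fold, lay between titled dorsal control and the floor plate. No spread between repeats exists, so neighbours in these orders cannot be separated. Over the 16 libraries Nr2f1 and Nr2f2 had a Pearson r of 0.61 (Spearman rho 0.61) on the scale relative to the median gene, Nr2f1 and Nr2e1 one of -0.15 (rho -0.16), and Nr2f2 and Nr2e1 one of -0.13 (rho -0.30). The libraries share stages and tissues, so these are descriptions.

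Nr2f1 changed sides between the arches from one stage to the next. At E9.5 its level was 8.39 in the mandibular arch and 30.4 in the maxillary arch, and at E10.5 it was 18.1 and 2.99. By level, the E9.5 maxillary library was thus the highest of all 16 for Nr2f1, and the mandibular library was the higher arch at E10.5. That first place depends on the scale. With the library shifts removed, the highest of the 7 mesenchymal libraries was the E10.5 mandibular arch. Relative to the median gene, Nr2f1 was 3.56-fold lower in the mandibular than in the maxillary arch at E9.5, where 14.9% of eligible genes were counted lower. At E10.5 it was 5.91-fold higher in the mandibular arch, a direction in which 39.6% of eligible genes were counted.

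Nr2f2 differed little between the arches at E9.5, with levels of 13.9 (mandibular) and 17.4 (maxillary) and a 1.23-fold lower value in the mandibular arch, which was not counted. At E10.5 its levels were 10.7 and 2.60, and it was counted 4.01-fold higher in the mandibular arch. Both paralogs therefore stood higher in the mandibular library at E10.5. Nr2e1 was at its lowest value in all 4 arch libraries, so it has no fold there.

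Followed over time, Nr2f1 was counted 4.27-fold higher in the E10.5 than in the E9.5 mandibular arch (2.15-fold as deposited), where 14.1% of eligible genes were counted higher. Nr2f2 was 1.52-fold higher there, which was not counted and became 1.30-fold lower in the values as deposited. In the maxillary arch the paralogs moved the same way. Nr2f1 was counted 4.55-fold lower at E10.5 (10.2-fold as deposited) and Nr2f2 3.0-fold lower (6.71-fold as deposited), in a pair in which 63.6% of eligible genes were counted lower.

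**Figure D2:**
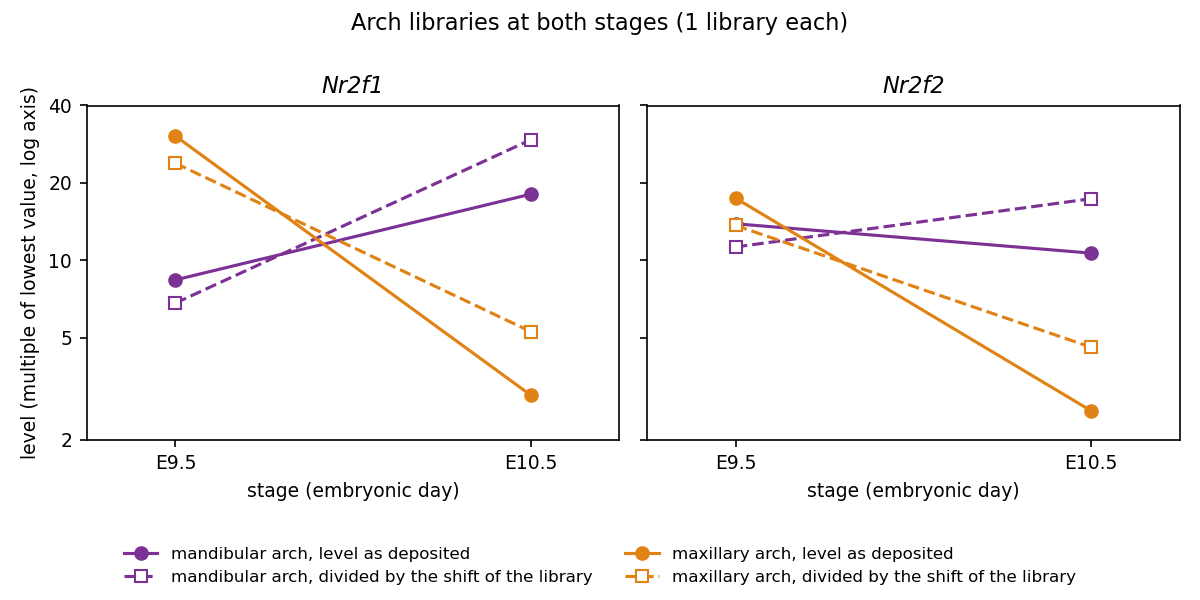
Level of Nr2f1 and Nr2f2 (log axis) in the mandibular and maxillary arch at E9.5 and E10.5, 1 library each, as deposited (filled circles) and divided by the shift of the library (open squares). The maxillary lines fall in both panels and on both scales, the mandibular line of Nr2f1 rises from 8.39 to 18.1 as deposited, and that of Nr2f2 falls from 13.9 to 10.7 as deposited and rises once divided by the shift.

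The change of sides was common among genes of these libraries. Of the 128 genes counted between the arches at both stages, 109 (85.2%) were counted in opposite directions, and 102 of them went the way of Nr2f1, lower in the mandibular arch at E9.5 and higher at E10.5. As a marker of the mandibular side, the mean log2 level of 10 distal arch genes was 2.51 (mandibular) and 1.13 (maxillary) at E9.5 and 1.64 and 0.49 at E10.5, higher in the mandibular library both times. What these genes contribute to the Nr2f1 values was not tested. With stage as a term in limma, no difference of either paralog between the arches passed: the log2 difference of mandibular minus maxillary was 0.34 (SE 0.90, adjusted p = 1.0) for Nr2f1 and 0.82 (SE 0.58, adjusted p = 1.0) for Nr2f2. That fit of 4 libraries called 0 of 8685 genes (0%), 142 genes (1.64%) had an unadjusted p under 0.05, and without the filter on low values limma called 47 genes higher and 74 lower.

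Among the nasal tissues, the COUP-TF genes were high in the lateral nasal prominence and Nr2e1 in the olfactory pit. In the lateral nasal prominence, which is mostly neural crest mesenchyme, the level was 21.7 for Nr2f1, 9.24 for Nr2f2 and 1 for Nr2e1. In the olfactory pit, the invaginating placode of the nose, the levels were 1.43, 5.76 and 14.6. Relative to the median gene Nr2f1 was 22.9-fold lower in the pit and Nr2f2 2.43-fold lower, in a direction counted for 10.2% of eligible genes. The Nr2f2 fold was 1.61 as deposited, which was not counted. Nr2e1 was at least 9.65-fold higher in the pit, where 45.7% of eligible genes were counted higher.

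The pit resembled E9.5 epidermal ectoderm, the surface tissue that gives rise to placodes. Nr2e1 had a level of 17.9 in the ectoderm and was 1.11-fold lower in the pit. Nr2f1 was 1.57-fold higher in the pit from a level of 1.0 in the ectoderm, and Nr2f2 was 1.46-fold lower. None of the 3 was counted, against 36.9% of eligible genes. Nr2e1 was thus measured outside neural epithelium, and markers of other cells were read beside it. The summed level of 12 surface epithelium markers was 277.1 in the ectoderm and 345.9 in the pit and at most 34.6 in each other library, and 10 of the 12 reached a level of at least 5 in both. The 12 neural epithelium markers summed to 83.2 and 103.2, with 4 and 6 of them at 5 or more. Sox2 and Pax6, which placodes also use, led these, while Sox1 and Fabp7 were at their lowest value in both libraries.

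Compared with the arches of its own stage, the lateral nasal prominence was nearer to the mandibular than to the maxillary arch in both COUP-TF genes. Nr2f1 was 1.03-fold lower and Nr2f2 1.43-fold lower than there, neither of them counted, against 24.7% of eligible genes, and Nr2f1 was 1.20-fold higher as deposited. Against the maxillary arch both were counted higher, Nr2f1 by 5.65-fold and Nr2f2 by 2.77-fold, in a direction counted for 40.9% of eligible genes. The library titled medial nasal prominence differed from the lateral one in all 3 genes, with levels of 8.21 for Nr2f1, 2.73 for Nr2f2 and 22.3 for Nr2e1. Nr2f1 was 4.16-fold lower and Nr2f2 5.33-fold lower, where 18.9% of eligible genes were counted lower. Nr2e1 was at least 14.2-fold higher, where 53.4% were counted higher. The neural marker levels of this library, given above, moved with that Nr2e1 value, and their part in it was not tested.

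Of the 3 E10.5 samples titled as neural epithelium, the one titled dorsal control had the lowest level of each gene, with Nr2f1 and Nr2f2 at their lowest value and Nr2e1 at 8.02. Nr2f1 had levels of 12.4 in lateral prominence neural epithelium, 20.7 in titled central and 1 in titled dorsal control. Nr2f2 had levels of 7.06, 37.5 and 1, and Nr2e1 of 56.4, 28.5 and 8.02. The COUP-TF genes thus peaked in titled central and Nr2e1 in lateral prominence. Between titled central and titled dorsal control, Nr2f1 was at least 23.6-fold higher, Nr2f2 at least 42.6-fold higher and Nr2e1 4.05-fold higher. All 3 were counted, in a direction counted for 14.7% of eligible genes.

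The lateral prominence library lay between the others for the COUP-TF genes. Over titled dorsal control, Nr2f1 was at least 13.1-fold, Nr2f2 at least 7.5-fold and Nr2e1 7.47-fold higher, where 14.4% of eligible genes were counted higher. Over titled central, Nr2f2 was 5.68-fold lower, the only one of the 3 that was counted, where 19.2% of eligible genes were counted lower. Nr2f1 was 1.79-fold lower and Nr2e1 1.85-fold higher in that pair.

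Markers of the dorsal and ventral telencephalon were read beside these values because of the doubt on the titles. The mean log2 level of 14 dorsal genes was 2.10 in titled central, 0.40 in titled dorsal control and 0.34 in lateral prominence. Wnt8b had a level of 11.1 in titled central and was at its lowest value in titled dorsal control, and Rspo3 had 27.3 against 1. The mean of 17 ventral genes was 1.02 in titled central, 2.39 in titled dorsal control and 1.18 in lateral prominence, with Nkx2-1 at 3.91, 101.2 and 1.98. In the library titled medial nasal prominence the ventral mean was 3.26, the highest of the 4, beside levels of 8.21 for Nr2f1 and 22.3 for Nr2e1. Of 19 measured genes of cortical patterning, 6 were counted higher and 2 lower in titled central than in titled dorsal control. Among them were Pax6, at least 75.8-fold higher, and Emx2, at least 16.4-fold higher, which set the dorsal and caudal cortex.

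At E8.5 Nr2f2 was already high in mesoderm and Nr2e1 had barely risen from its lowest value. The Nr2f1 levels were 6.40 in mesoderm, 5.49 in caudal brain, 4.55 in floor plate and 1 in non-floor plate neural epithelium. The Nr2f2 levels were 27.1, 3.40, 7.45 and 5.90, and those of Nr2e1 were 1, 1, 3.10 and 2.42. Nr2f1 was at least 4.54-fold higher in caudal brain than in non-floor plate (8.18% of eligible genes counted higher). Nr2f2 was 2.10-fold lower there (24.8% counted lower), a value that is 1.74-fold and not counted as deposited. Mesoderm over non-floor plate gave Nr2f1 at least 4.81-fold and Nr2f2 3.45-fold higher, where 14.6% of eligible genes were counted higher. Between floor plate and non-floor plate none of the 3 was counted, against 36.9% of eligible genes. Nr2f2 and Nr2e1 differed by 1.03-fold and 1.04-fold, and Nr2f1 was at least 3.70-fold higher in the floor plate at a level under 5.

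From E8.5 mesoderm to E9.5 cranial mesenchyme Nr2f1 was counted 2.08-fold higher, where 18.7% of eligible genes were counted higher, although it was 1.80-fold and not counted as deposited. Nr2f2 was 1.23-fold lower. At E9.5 the cranial mesenchyme had 2.38-fold less Nr2f1 than the maxillary arch (5.70% of eligible genes counted lower) and 1.22-fold more Nr2f2. Nr2e1 had a level of 1.91 in cranial mesenchyme, the only mesenchymal library in which it was above its lowest value.

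Nr2f2 marks veins, so 11 endothelium genes, among them Cdh5, Kdr and Emcn, were read beside it. Their summed level was 101.3 in E8.5 mesoderm, 52.9 to 60.9 in the 3 mesenchymal libraries of E9.5 and 22.4 to 23.9 in those of E10.5. By level as deposited, Nr2f2 followed a like order in these tissues, 27.1 in the first, 13.9 to 19.1 in the second and 2.60 to 10.7 in the third. That order depends on the scale. Relative to the median gene, Nr2f2 was higher in the E10.5 than in the E9.5 mandibular arch (log2 fold 0.61). The part of endothelium in the Nr2f2 values was not tested. In the library titled central, where Nr2f2 was highest, the 11 genes summed to 13.2 and 10 of them were at their lowest value. In epidermal ectoderm, with Nr2f2 at 9.27, they summed to 11.3, again with 10 at their lowest value.

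**Figure D3:**
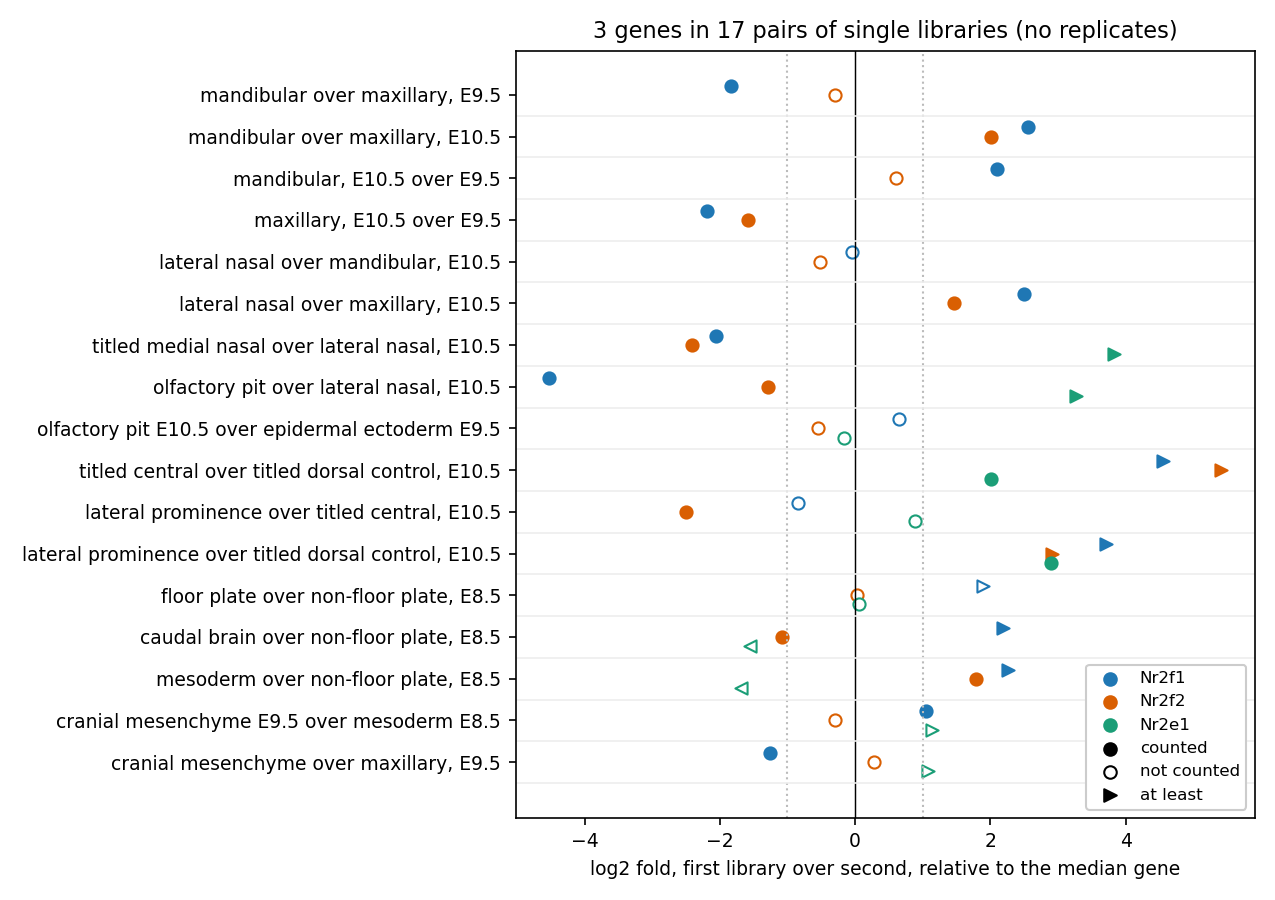
Log2 fold of Nr2f1, Nr2f2 and Nr2e1 between the libraries of 17 pairs, relative to the median gene, with filled symbols for counted differences, triangles for folds that are at least as large as shown, and dotted lines at 2-fold. Points are left out where both libraries are at the lowest value. In both pairs that set the titled medial nasal library or the olfactory pit over the lateral nasal prominence, Nr2f1 and Nr2f2 lie left of 0 and Nr2e1 right of it.

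Tests over several libraries compared tissue classes with limma, where the spread is that between different regions and not between repeats. Neural epithelium (6 libraries) was set against mesoderm, mesenchyme, arches and lateral nasal prominence (7 libraries). Nr2e1 had a lowest level of 1, a median of 5.56 and a highest of 56.4 in neural epithelium, and 1, 1 and 1.91 in the mesenchymal libraries. Its log2 difference was 2.53 (SE 0.80), and it did not pass with an adjusted p of 0.091. Nr2f1 had 1, 5.02 and 20.7 in neural epithelium and 2.99, 11.5 and 30.4 in mesenchymal libraries, a log2 difference of -1.47 (SE 0.73, adjusted p = 0.32). Nr2f2 had 1, 6.48 and 37.5 against 2.60, 13.9 and 27.1, a difference of -1.11 (SE 0.63, adjusted p = 0.40). The classes overlapped for all 3 genes, and 3.91% of 12282 genes passed at an adjusted p under 0.05 and 2-fold. Nr2e1 passed in 2 alternatives. With a covariate that set E10.5 against E8.5 and E9.5 together, the log2 difference was 2.37 (limma adjusted p = 0.022). Without caudal brain the log2 difference was 3.14 (limma adjusted p = 0.023).

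At E10.5, Nr2e1 rose in neural epithelium over the face. Its levels were 56.4, 28.5 and 8.02 in the 3 neural libraries and 1 in the lateral nasal prominence and both arches, so the groups did not overlap. The lowest neural library was at least 4.76-fold above the face libraries. The limma adjusted p was 0.016, in a direction passed by 2.62% of 9512 genes (6.13% in either direction). Nr2e1 met the filter on low values only through the 3 neural libraries, where it is high. Its spread in the face libraries is that of the library shifts alone, so this p-value does not measure variation of Nr2e1 there. The call was lost without the lateral nasal prominence (adjusted p = 0.096), without the mandibular arch (0.095) and with the library titled medial nasal added to the face (0.45). Without any one neural library Nr2e1 was above its lowest value in 2 libraries and was not tested. Nr2f1 (log2 difference -1.19, SE 1.14, adjusted p = 0.56) and Nr2f2 (-0.44, SE 1.16, adjusted p = 0.86) did not pass, with groups that overlapped. An exact two-sided permutation test over 3 against 3 libraries cannot go below 0.1, and it gave 0.1 for Nr2e1.

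Nr2e1 was also higher in the E10.5 than in the E8.5 neural epithelium libraries. By title, no neural region was sampled at both stages, so stage and region cannot be told apart here. From levels of 1, 3.10 and 2.42 at E8.5 to 8.02, 28.5 and 56.4 at E10.5 the log2 difference was 3.95 (SE 1.01, limma adjusted p = 0.032), with every E10.5 library above every E8.5 library. Of 10466 genes 7.11% passed as higher and 16.2% in either direction. The adjusted p lay between 0.020 and 0.15 over the fits that left out 1 library and was above 0.05 without caudal brain (0.15), floor plate (0.058), non-floor plate (0.071) or titled central (0.060). Nr2f1 differed by 1.49 (SE 1.14, adjusted p = 0.38), and by 2.88 (adjusted p = 0.030) without titled dorsal control, where it was at its lowest value. Nr2f2 differed by 0.64 (SE 1.17, adjusted p = 0.72). In the face, the lateral nasal prominence and both arches of E10.5 minus the cranial mesenchyme and both arches of E9.5 gave 0.48 (SE 0.77, adjusted p = 0.68) for Nr2f1 and -0.47 (SE 0.49, adjusted p = 0.52) for Nr2f2, and 15.4% of 10342 genes passed. Nr2e1 was above its lowest value in 1 of those 6 libraries and was not tested.

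Other nuclear receptors were measured in the same libraries. Of 12 further orphan receptors, 11 were tested between neural epithelium and mesenchymal libraries and 0 passed in either direction by limma, with a median log2 difference of 0.10 against -0.05 over all genes tested. Nr6a1 (germ cell nuclear factor), a receptor of the early embryo, had levels of 21.6 to 46.0 at E8.5, 5.39 to 13.5 at E9.5 and 1 to 3.68 at E10.5. In neural epithelium, where the regions differ too, it was lower at E10.5 than at E8.5 (log2 difference -4.04, SE 0.50, limma adjusted p = 0.0043). In the face it was lower at E10.5 than at E9.5 (-2.05, SE 0.32, limma adjusted p = 0.0080). Nr2f6, the third COUP-TF gene, fell in the face (-1.51, SE 0.24, adjusted p = 0.0082), and in titled central it was 5.57-fold lower than in titled dorsal control, opposite to Nr2f1 and Nr2f2. Nr2c1 and Rora rose in the face relative to the median gene (1.06 and 1.43), but their levels as deposited were low and overlapped. Nr2c1 ran from 1.13 to 1.92 at E10.5 and from 1.06 to 1.79 at E9.5. Rora ran from 1 to 1.90 and from 1 to 1.12. In all, 2 of 7 tested orphan receptors rose and 2 fell in the face relative to the median gene, where 15.4% of all genes passed. Their median was 0.55 against 0.04 over all genes.

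Of 8 tested receptors with known ligands, 2 were lower in neural epithelium and 0 higher, where 3.91% of all genes passed, with a median log2 difference of -0.32 against -0.05 over all genes tested. Both are retinoic acid receptors. Rarg differed by -2.42 (SE 0.28, limma adjusted p = 0.00013) and Rara by -1.44 (SE 0.29, adjusted p = 0.0077). Rarg was at its lowest value in all 3 neural libraries of E10.5, where the face was at least 6.06-fold higher. Rarb, a target of retinoic acid itself, had a level of 10.9 in the lateral nasal prominence and at most 4.47 elsewhere. Of 9 genes of retinoic acid metabolism, the binding protein Crabp1 was lower in neural epithelium (-4.35, SE 0.91, adjusted p = 0.010), 1 of 7 tested, with a median of -0.53. Retinoic acid is background here because Nr2f1 and Nr2f2 are known to respond to it and to compete with its receptors for DNA.

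Among 20 corepressors and partners, 0 of 19 tested differed between neural epithelium and mesenchymal libraries by limma, with a median of -0.04 against -0.05 over all genes. Bcl11a, a binding partner of the COUP-TF proteins, was higher at E10.5 than earlier. The neural regions sampled also differ between the stages. In neural epithelium Bcl11a was at its lowest value in all E8.5 libraries and at least 11.7-fold higher at E10.5. It passed there (limma adjusted p = 0.0016), 1 of 17 tested where 16.2% of all genes passed. It met the filter on low values only through the E10.5 libraries. Its spread at E8.5 is that of the library shifts alone, so this p-value does not measure variation of Bcl11a there. In the face Bcl11a differed by 3.86 (SE 0.57, limma adjusted p = 0.0068). Relative to the median gene, 2 partners rose in the face (Bcl11a and Rcor1) and 2 fell (Rcor2 and Tbl1xr1), of 18 tested. There 15.4% of all genes passed, and the median log2 difference was 0.25 against 0.04 over all genes. Of 9 tested genes of cortical patterning, 3 were higher in E10.5 neural epithelium than in the face, a direction passed by 2.62% of all genes, among them Otx2 by 4.74 (SE 0.53, adjusted p = 0.0027) and Lhx2 by at least 14.4-fold.

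**Figure D4:**
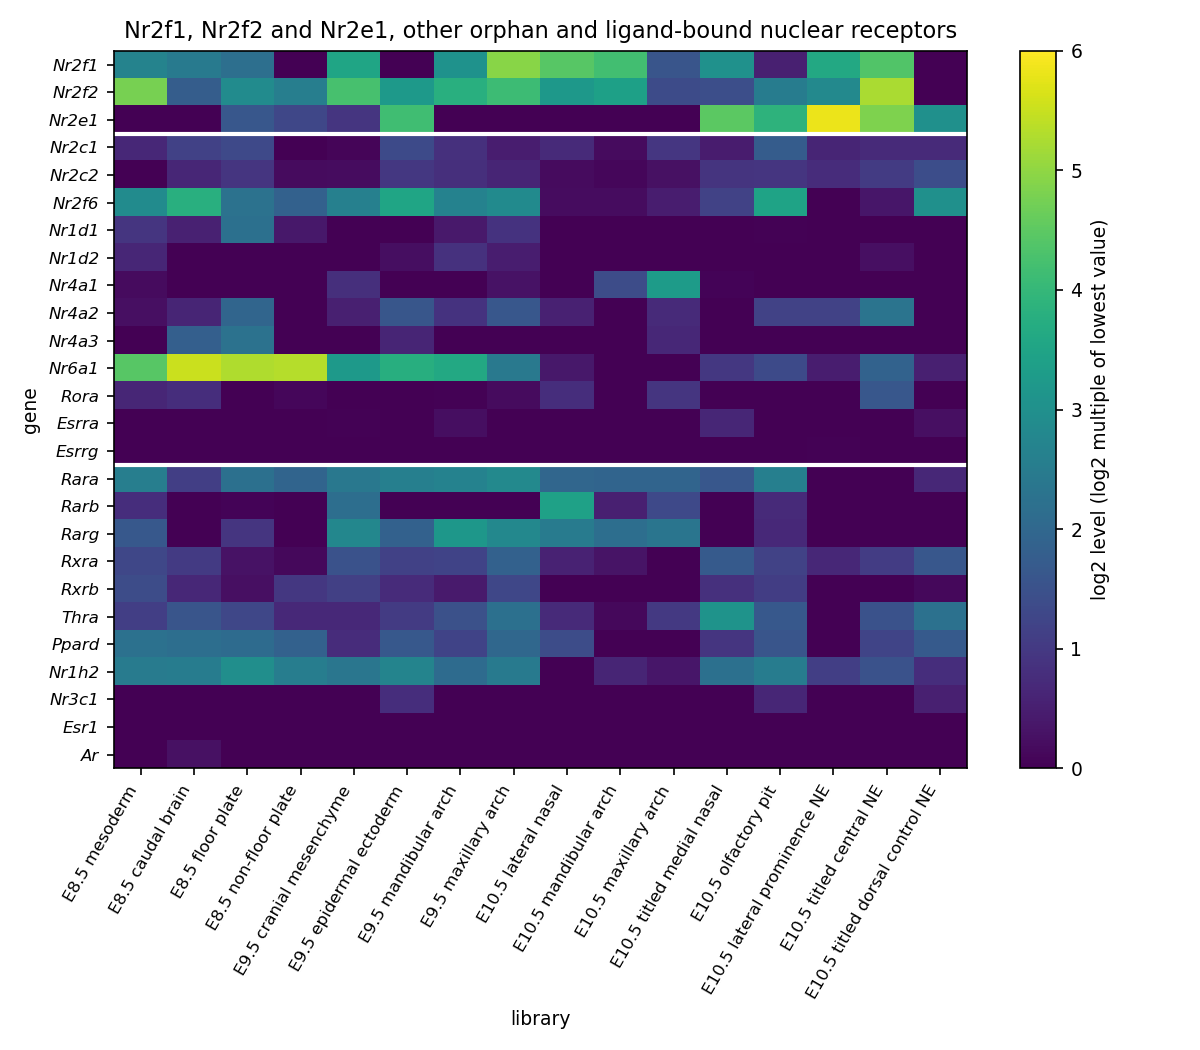
Log2 level (colour, 0 at the lowest value of the gene) of Nr2f1, Nr2f2 and Nr2e1, of 12 other orphan receptors and of 11 receptors with known ligands in the 16 libraries. Nr6a1 is bright in the 4 libraries of E8.5, with levels of 21.6 to 46.0, against 1 to 3.68 at E10.5. Colours compare libraries within a row.

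Genes with a pattern like that of each receptor were taken as the 5 highest Pearson correlations over the 16 libraries among 6008 genes that were above their lowest value in at least 8 libraries and ranged over at least 4-fold. For Nr2e1 they were Zdhhc2 (0.89), Itgb8 (0.89), Gdpd1 (0.89), Strbp (0.88) and Dpysl3 (0.88). Their peaks lay in the olfactory pit, lateral prominence neural epithelium or the library titled medial nasal. For Nr2f2 they were Nxn (0.79), Commd10 (0.74), Mrpl37 (0.72), Fasn (0.72) and Lap3 (0.71), 5 genes with a highest level of at most 5.62. For Nr2f1 they were Mir1931 (0.86), Pecam1 (0.82), A830082K12Rik (0.81), Ftsj1 (0.80) and Gm8327 (0.77). Pecam1 is a marker of endothelium, with levels of 2.85 to 6.63 in the 7 mesenchymal libraries, 4.36 in lateral prominence and 3.16 in titled central.

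A830082K12Rik is a noncoding gene that starts on the opposite strand over the start of Nr2f1. Such neighbours were looked at for all 3 receptors after the values had been seen. The level of A830082K12Rik was 19.3 in titled central and 9.81 in lateral prominence, and it was at its lowest value in titled dorsal control, as Nr2f1 was, and in the olfactory pit (rho 0.77). B130024G19Rik, opposite Nr2f2, was above its lowest value only in titled central (1.52) and E8.5 mesoderm (1.53), the 2 libraries with the highest Nr2f2. Ostm1, which in GENCODE starts beside Nr2e1 on the other strand, had an r of 0.71 and a rho of 0.82 with it and a highest level of 4.32 in titled medial nasal. The transcripts share sequence across strands: 56 of the 5090 stretches of 50 bases in Nr2f1 (1.10%), 594 of 8582 in Nr2f2 (6.92%) and 0 in Nr2e1 occur in the neighbour. Whether the reads were counted by strand is not given in the sources used here, so reads from these overlaps cannot be told apart.

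**Figure D5:**
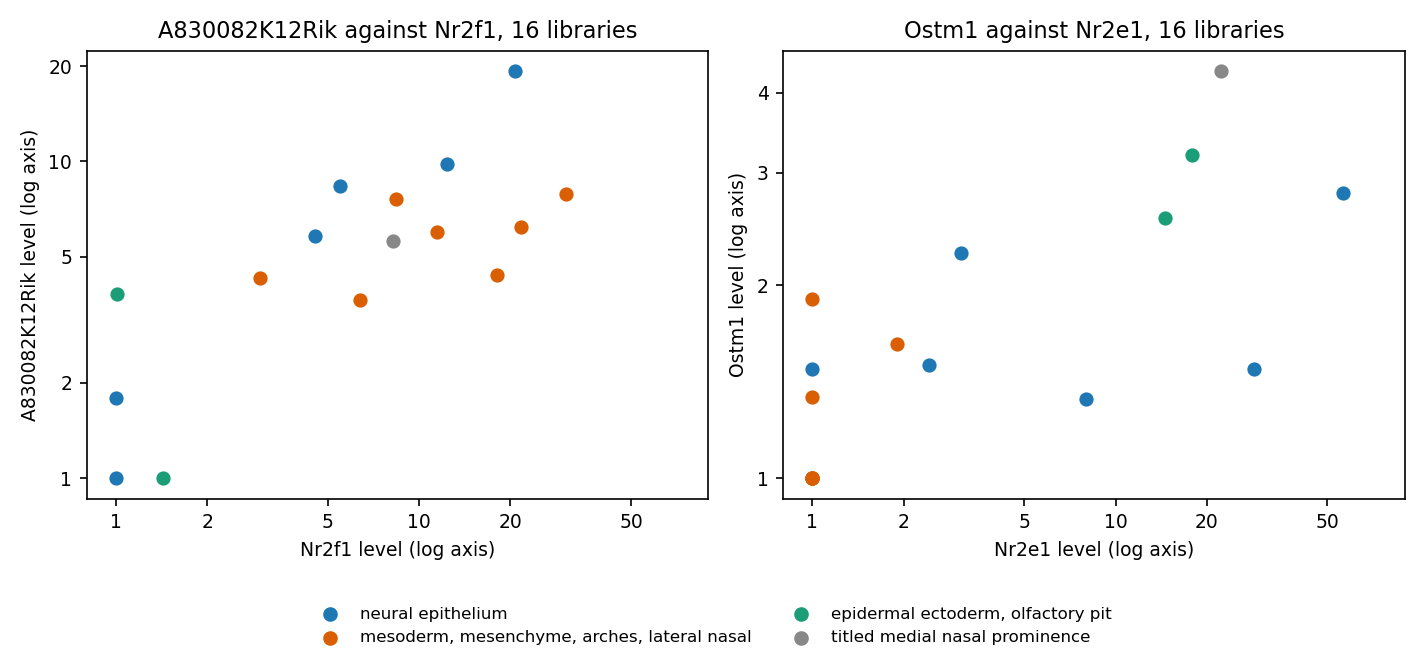
Level of A830082K12Rik against Nr2f1 and of Ostm1 against Nr2e1 (log axes) in the 16 libraries, coloured by tissue, with libraries at the lowest value of both genes on top of each other at the lower left. A830082K12Rik reaches 19.3 where Nr2f1 is at 20.7, and Ostm1 spans a smaller range, up to 4.32.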

How the data were processed

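Total RNA was sequenced in single-end reads of 50 bases on an Illumina HiSeq instrument, per the labels. The submitters' processing notes name Bowtie, TopHat, TopHat2, Cufflinks and the build mm9. The deposited values are a ratio: each gene was divided by its median over the 16 libraries by the authors, as worked out from the values, and low values were raised to a shared lowest value. The unit before that division is not given in the sources used here, and the depth per library is unknown.

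Levels and library pairs were computed in Python 3.11.15. Class comparisons used limma 3.58.1 (R 4.3.3, mean-variance trend) on log2 ratios minus the shift of the library, for genes above their lowest value in at least 3 libraries of the fit, with Benjamini-Hochberg adjustment over all genes tested. Values had been planned as FPKM, so ratios replaced them and no pseudocount was used. Scripts were tested on simulated data. Named genes were the 3 receptors, list genes past a threshold and the 5 most alike. The receptors and the lists were chosen with earlier results of these data known.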

Additional observations from a re-analysis of the deposited data

Results flagged for a closer look

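Nr2f2 was low in the E10.5 maxillary arch for a mesenchymal tissue. The gap from that library to the next of the 7 mesenchymal libraries was 0.598 of their whole range on the log2 scale, past the critical value of 0.568. It was past only once the library shift was removed: on levels as deposited the gap was 0.542 of the range. Both ends of 2 tissue classes were looked at for each of the 3 genes, 12 ends in all, and 1 was past. The reading on levels as deposited was added after the values had been seen. In it 1 end was past too, Nr2e1 in cranial mesenchyme, the only one of the 7 libraries above the lowest value. With the others tied at that value the gap is the whole range, so any value above it would be past. Chance puts about 1 in 20 groups of normally spread repeats past the critical value. These libraries are of different tissues and stages, so that rate need not hold for them.

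The arch difference had opposite signs at the 2 stages for both COUP-TF genes, and only that of Nr2f1 was counted at both. For Nr2f1 the log2 fold of mandibular over maxillary was -1.83 at E9.5 and 2.56 at E10.5. For Nr2f2 it was -0.30, which was not counted, and 2.0. With 1 library for each arch and stage, the difference between stages was not tested.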

How the results depend on the processing

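Other settings were tried for 214 values of the 3 receptors, without counting those that left out a library: 201 kept their direction and side of the threshold, 8 fell below it, 5 rose past it and 0 called values changed sign. Among the library pairs, values as deposited took Nr2f2 under 2-fold in the olfactory pit over lateral nasal (log2 -0.68) and in caudal brain over non-floor plate (-0.80, and -1.0 with the shift taken from genes above their lowest value in both), and Nr2f1 in cranial mesenchyme over mesoderm (0.84). A level of at least 2 in place of 5 counted Nr2f1 in floor plate over non-floor plate (1.89) and Nr2e1 in caudal brain (-1.55) and mesoderm (-1.69) over non-floor plate. It also raised the genes counted, pair by pair in the order of the plot of 17 pairs, to 1356, 1768, 2407, 2580, 419, 1653, 2826, 2129, 2063, 1985, 1187, 2177, 1954, 1565, 2112, 1605 and 1354. Between neural epithelium and mesenchymal libraries, Nr2e1 passed in limma with the covariate for E10.5 against the earlier stages together (2.37). It also passed there by the exact two-sided permutation test (2.53, p = 0.0122, not adjusted). In limma, Nr2e1 was lost at E10.5 against the face with the titled medial nasal library added (3.20). It was also lost between neural stages without the filter (3.95, limma adjusted p = 0.055). For E10.5 against the face (4.10) and between neural stages (3.95), the exact two-sided permutation test gave Nr2e1 p = 0.1. That is the smallest value 3 against 3 libraries allow, so this test cannot decide whether either result holds. The 8 values counted as falling below the threshold include both of these permutation results.

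Counts of genes moved more. As deposited, 147 genes were lower in neural epithelium, 910 higher and 183 lower in E10.5 neural epithelium than in the face, 310 higher and 1767 lower in neural epithelium from E8.5 to E10.5, and 147 higher and 4042 lower in the face from E9.5 to E10.5. Without the filter 1407 were higher in the E10.5 face, and 47 higher and 74 lower between the arches. With the titled medial nasal library added, limma called 84 higher and 139 lower in neural epithelium, and 0 higher and 0 lower at E10.5. The cause was not tested.

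Leaving out 1 library at a time gave, for neural epithelium against mesenchymal libraries, log2 differences of -1.98 to -1.05 for Nr2f1, -1.71 to -0.62 for Nr2f2 and 1.88 to 3.14 for Nr2e1. For E10.5 neural epithelium against the face they were -2.09 to 0.20, -1.76 to 0.96 and 3.97 to 4.19, the last over the 3 fits that leave out a face library, with 54 to 312 genes higher and 65 to 533 lower. Between neural stages they were 0.59 to 2.88, -0.68 to 2.04 and 3.31 to 4.78, with 304 to 721 genes higher and 375 to 962 lower. Between face stages Nr2f1 ran from 0.06 to 1.30 and Nr2f2 from -0.87 to 0.09, with 420 to 633 genes higher and 460 to 794 lower. The arch fit with a stage term could not be fitted without a library, since no residual degrees of freedom remain. No paired analysis was possible because each region and stage has 1 library and replicate numbers pair nothing. The arch fit pairs libraries by stage, and without that term the log2 differences were 0.34 for Nr2f1 and 0.82 for Nr2f2, with 0 genes higher and 0 lower. The unknown depth and the raised low values limit what can be seen of Nr2e1 in mesenchymal tissue.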
